A study of Mus musculus with 15 samples.

Results

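The genes that copy DNA in S phase and those that carry a cell through G2 and mitosis were followed in mouse embryonic stem cells (ESC) after knockdown (kd) of Smarcb1, a core subunit of the canonical and the Polybromo-associated BAF complexes, which shift and evict nucleosomes, though not of the non-canonical BAF complex. Members were taken by gene symbol from a list of 44 genes, 22 that act in S phase and 22 that act in G2 and mitosis, among the 55228 genes of each deposited table, and every symbol was found exactly once. The cells were the line 81K1, a single clone made from OG2 ESC that holds an shRNA against Smarcb1 at the Rosa26 locus behind a doxycycline-dependent promoter. Cells given 1 µg/ml doxycycline daily (kd) were sampled after 48 h, 72 h and 240 h. Cells of the same clone without doxycycline, which carry the shRNA cassette too, served as control (ctrl) at 48 h and 240 h. Each of the 5 groups had 3 RNA-seq libraries. The labels do not say that the 3 libraries of a group came from separate cultures, so p-values measure only the spread between libraries, which may be technical. In these libraries doxycycline was given only to cells with the cassette, so its own effect on RNA levels and that of the knockdown cannot be told apart. Treated parental OG2 cells, which the study used in a growth assay, are not among the libraries.

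A cell can copy its DNA only where origin proteins have loaded the Mcm2-7 helicase, which Cdc45 and the GINS proteins then start. Genes of this machinery are switched on before S phase by E2F transcription factors, while genes of the mitotic programme are switched on later by the MuvB complex with B-Myb and Foxm1, acting through a CHR element (cell cycle homology region) close to the start of transcription. ESC pass through the cycle quickly and with a short G1, and are known for high expression of both gene sets. In RNA from whole cultures, fewer cells in a phase and less RNA of a gene per cell cannot be told apart.

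The letters of these elements were searched in promoter sequences from RefSeq (build GRCm38.p6), 250 bases before to 50 bases after a start site, on both strands, with 1 promoter per gene. A promoter was held for 19 of the 22 S-phase members and 17 of the 22 G2/M members. The E2F core was searched as TTCCCGC or TTCGCGC and as TTGCCGC or TTGGCGC, the CHR as TTTGAA or as TTCGAA, and the CCAAT box as CCAAT. An E2F core stood in 14 of the 19 S-phase promoters and in 3 of the 17 G2/M promoters, against 11.4% of all 20403 promoters searched and 18.9% of the 7368 of genes tested at 72 h, so that the G2/M share was close to that of tested genes. A CHR stood in 12 of the 17 G2/M promoters and in 4 of the 19 S-phase promoters, against 18.4% of all and 14.01% of tested genes. CCAAT boxes were frequent in both sets, in 15 promoters of each, against 38.2% of all and 40.5% of tested genes. The letters of an E2F core and of a CCAAT box can overlap, and they shared bases in Mcm7, Prim1 and Ccnb1. A match describes letters and is not a measured binding site. For the 3 members of each set with the largest changes against a control that had a promoter, E2f1 aside, the promoters are given below with motif letters in capitals, to show which of these letters stand at the genes on which the results turn. The E2f2 window, chr4:136172024-136172323 (plus strand), held an E2F core downstream of the start site and a CCAAT box upstream. The Pcna window, chr2:132253131-132253430 (minus strand), held a CCAAT box on the opposite strand. Those of Plk1, chr7:122159185-122159484 (plus strand), and Bub1, chr2:127831810-127832109 (minus strand), held a CHR downstream of the start site with CCAAT letters upstream, and that of Birc5, chr11:117848987-117849286 (plus strand), held none of the searched words. The start site of the window listed for E2f1 lay 466 bases inside the gene, so this window is counted above but not shown. The start sites used for Mcm7 and Cdc6, both counted with an E2F core, lay 539 and 350 bases from the gene's 5′ end.
E2f2: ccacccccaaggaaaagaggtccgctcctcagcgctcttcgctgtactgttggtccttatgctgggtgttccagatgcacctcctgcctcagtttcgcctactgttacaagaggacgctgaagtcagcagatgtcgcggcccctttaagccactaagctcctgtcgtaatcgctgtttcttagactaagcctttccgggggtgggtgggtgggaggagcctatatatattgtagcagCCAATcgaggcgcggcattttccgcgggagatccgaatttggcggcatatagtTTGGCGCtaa
Pcna: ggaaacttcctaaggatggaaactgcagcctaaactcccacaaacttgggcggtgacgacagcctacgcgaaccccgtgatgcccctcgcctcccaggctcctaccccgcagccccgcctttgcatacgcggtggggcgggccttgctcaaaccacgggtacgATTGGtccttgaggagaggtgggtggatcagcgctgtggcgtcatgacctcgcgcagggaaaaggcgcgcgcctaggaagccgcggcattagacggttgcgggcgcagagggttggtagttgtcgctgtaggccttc
Birc5: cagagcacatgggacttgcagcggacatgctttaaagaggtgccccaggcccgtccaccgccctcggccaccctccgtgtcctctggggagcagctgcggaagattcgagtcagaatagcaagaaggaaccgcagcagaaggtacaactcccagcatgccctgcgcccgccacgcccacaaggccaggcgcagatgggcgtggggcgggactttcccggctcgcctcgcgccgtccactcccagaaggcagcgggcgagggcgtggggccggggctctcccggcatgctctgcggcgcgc
Plk1: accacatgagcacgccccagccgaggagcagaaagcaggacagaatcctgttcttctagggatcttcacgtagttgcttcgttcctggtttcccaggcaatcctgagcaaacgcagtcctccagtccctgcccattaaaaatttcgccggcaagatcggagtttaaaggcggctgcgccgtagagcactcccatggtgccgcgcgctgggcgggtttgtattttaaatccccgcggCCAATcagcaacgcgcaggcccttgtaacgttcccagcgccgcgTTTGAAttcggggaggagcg
Bub1: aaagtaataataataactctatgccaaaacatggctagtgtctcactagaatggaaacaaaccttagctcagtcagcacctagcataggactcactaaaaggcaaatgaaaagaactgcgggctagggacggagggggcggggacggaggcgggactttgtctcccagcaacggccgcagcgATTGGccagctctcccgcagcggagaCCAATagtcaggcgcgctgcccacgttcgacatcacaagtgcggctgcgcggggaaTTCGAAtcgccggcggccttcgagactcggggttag

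**Figure D1:**
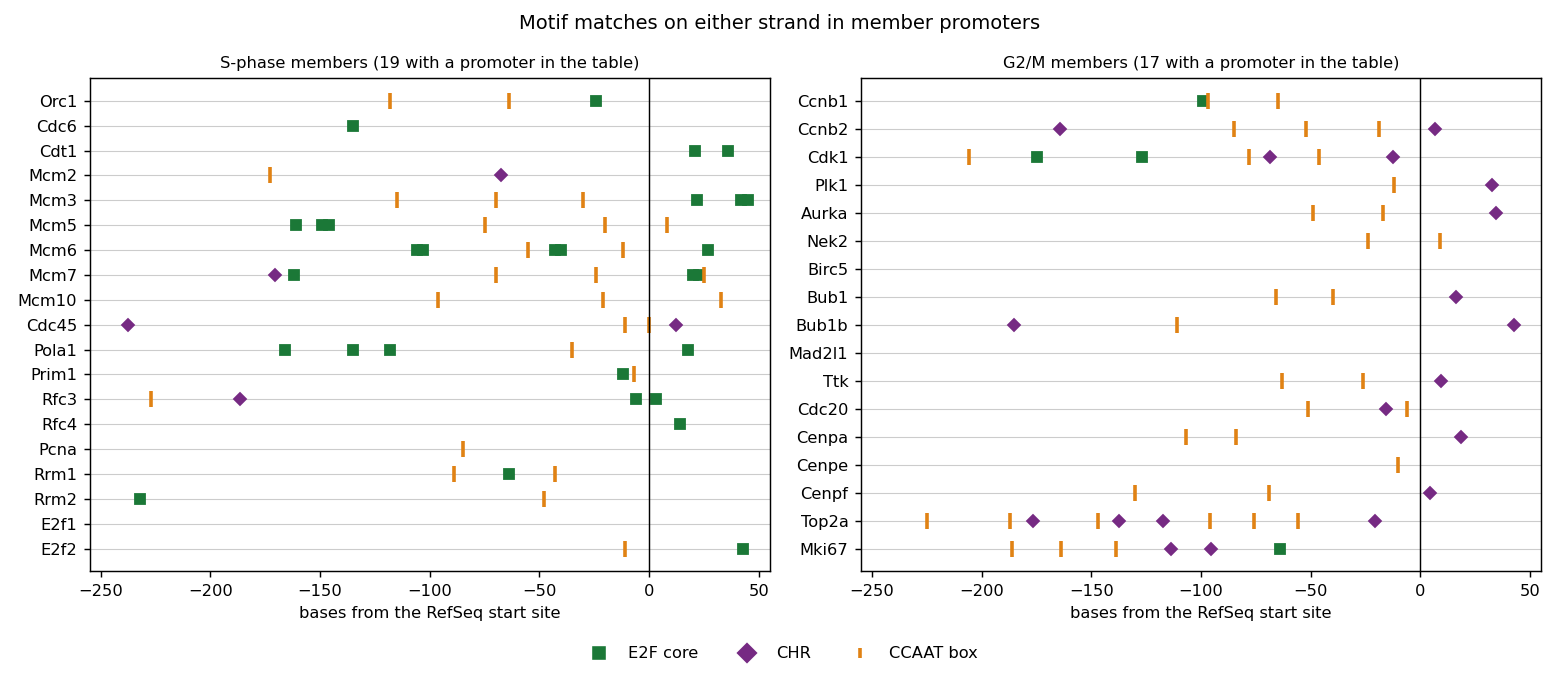
Matches to the E2F core (squares), CHR (diamonds) and CCAAT box (bars) in the promoters of S-phase members (left) and G2/M members (right), with the distance in bases from the RefSeq start site on the x axis. E2F cores lie in 14 of 19 S-phase promoters and CHR letters in 12 of 17 G2/M promoters.

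The values are FPKM, reads per kilobase of gene scaled to the reads of the library, and gene length is here the whole gene span with introns. Recovered totals were 11074998 to 14515300 reads per library, and the members had between 186 and 13577 reads in a library. Smarcb1 itself fell from 3.41 to 3.93 FPKM in ctrl 48 h libraries and 3.31 to 3.55 FPKM in ctrl 240 h libraries to 0.503 to 0.820 FPKM in the kd libraries. Markers of pluripotent cells summed to 1714 to 2773 FPKM over 10 genes, with Dppa5a the largest share, and none of them was under 0.5 FPKM throughout. Single markers differed from their control in both directions. Lower values were those of Klf4, at a mean of 89.2 FPKM in ctrl 48 h, 48.8 in kd 48 h, 83.4 in ctrl 240 h and 36.1 in kd 240 h, and at 240 h those of Zfp42, at 49.5 in ctrl and 33.0 in kd, of Esrrb, at 5.11 and 2.94, of Sox2, at 307 and 251, and of Fgf4, at 13.2 and 10.7. Higher values were those of Dppa5a, at 765 in ctrl 48 h, 1005 in kd 48 h and 1570 in kd 72 h, of Tdgf1, at 71.2 in ctrl 48 h and 84.5 in kd 72 h, and of Utf1, at 269 in ctrl 240 h and 320.3 in kd 240 h. Sox2 and Nanog were lower than in ctrl 48 h after 48 h and higher after 72 h, with 325, 256 and 357 FPKM for Sox2 and 75.0, 68.2 and 82.2 FPKM for Nanog in ctrl 48 h, kd 48 h and kd 72 h. All 6 primitive endoderm markers stayed under 0.5 FPKM in every library. Trophoblast markers summed to 11.4 to 12.3 FPKM in ctrl 48 h, 7.85 to 8.69 in kd 48 h, 20.1 to 21.2 in kd 72 h, 9.87 to 11.3 in ctrl 240 h and 22.9 in kd 240 h, with Tfap2c the largest share in each group, Krt18 next in kd 240 h, and Elf5 near 0. Neural markers summed to 20.8 to 22.2 FPKM in ctrl 48 h, 26.1 to 30.3 in kd 48 h, 24.1 to 26.3 in kd 72 h, 20.5 to 22.4 in ctrl 240 h and 34.3 to 35.7 in kd 240 h, with Neurog2 at or near 0. Among these, Sox1 had a mean of 4.69 FPKM in ctrl 48 h and 15.8 in kd 72 h, while Tubb3 had 13.4 and 7.26 and Nes 2.86 and 2.02 in the same groups. The part of these shifts in the results was not tested. The second kd 48 h library stood apart from both others of its group, with 2.35% of its reads from mitochondrial genes against 0.469% to 1.81% elsewhere. The third ctrl 240 h library, which had the lowest share, also differed from both others of its group.

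Levels between genes were compared per kilobase of exons, scaled to library size in the same way, in ctrl 48 h libraries. The reads are those of the whole gene span, which may include introns and overlapping genes, so these levels are approximate. On this scale the helicase subunit Mcm5 stood highest of all members at a level of 200, followed by Cdc20 at 161, Rrm2 at 152 and Mcm3 at 143, where the libraries of Cdc20 and Rrm2 overlapped. The lowest levels were those of the phosphatase Cdc25c at 4.73, the centrosome kinase Nek2 at 4.74 and the transcription factor E2f2 at 8.44, where Nek2 and Cdc25c overlapped. The gene with the largest change after knockdown was thus among the least expressed of the members.

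Most members changed by less than the fold threshold after Smarcb1 loss, and 3 of them, E2f2 and Pcna of the S-phase set and Birc5 of the G2/M set, went beyond it. In limma fits on log2(FPKM + 0.1) over every gene whose mean reached 0.5 FPKM, all 44 members were tested in each comparison. A gene passed at a Benjamini-Hochberg adjusted p-value under 0.05 and was called where its log2 fold change was also beyond 0.58 in either direction, the thresholds of the study. At 48 h, 1 of 44 members passed as higher, beside 8.03% of all genes tested, and 7 passed as lower, beside 8.12% of all genes, with 2 called, beside 3.99%. At 72 h against the 48 h control, 9 members passed as higher (28.9% of all genes) and 21 as lower (26% of all genes), and 3 were called (13.5%). At 240 h, 5 members passed as higher (17.3%) and 10 as lower (16.4%), and 2 were called (8.91%). The share of members that passed as lower was above that of all genes at each time, and the share called was below that of all genes at 72 h and 240 h. With 1 library left out, 3 to 7 members passed at 48 h, with 3 without any of the ctrl 48 h libraries and 4 without the third kd 48 h library. Over all genes the share passing moved as well, from 16.1% to between 5.96% and 14.9%. With voom on recovered reads, 2 members passed as higher and 14 as lower at 48 h (25.7% of all genes). In 1 fit of all 15 libraries these were 3 and 15 (28.4%). With replicate number as a block they were 0 and 1 (3.95%). Every member called against a control was lower in kd: E2f2 and Pcna at each time and Birc5 at 72 h. With a pseudocount of 1 in place of 0.1, E2f2 at 48 h (-0.45), Birc5 at 72 h (-0.56) and Pcna at 240 h (-0.58, just short of the threshold) passed but were not called. After removal of trends with GC content and gene span, Pcna (-0.53) and Birc5 (-0.58, just short again) passed at 72 h without being called, and Plk1 was called at -0.62. The 48 h and 72 h comparisons share their 3 control libraries. No control was sampled at 72 h, so knockdown and time of sampling cannot be told apart in the 72 h comparison.

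**Figure D2:**
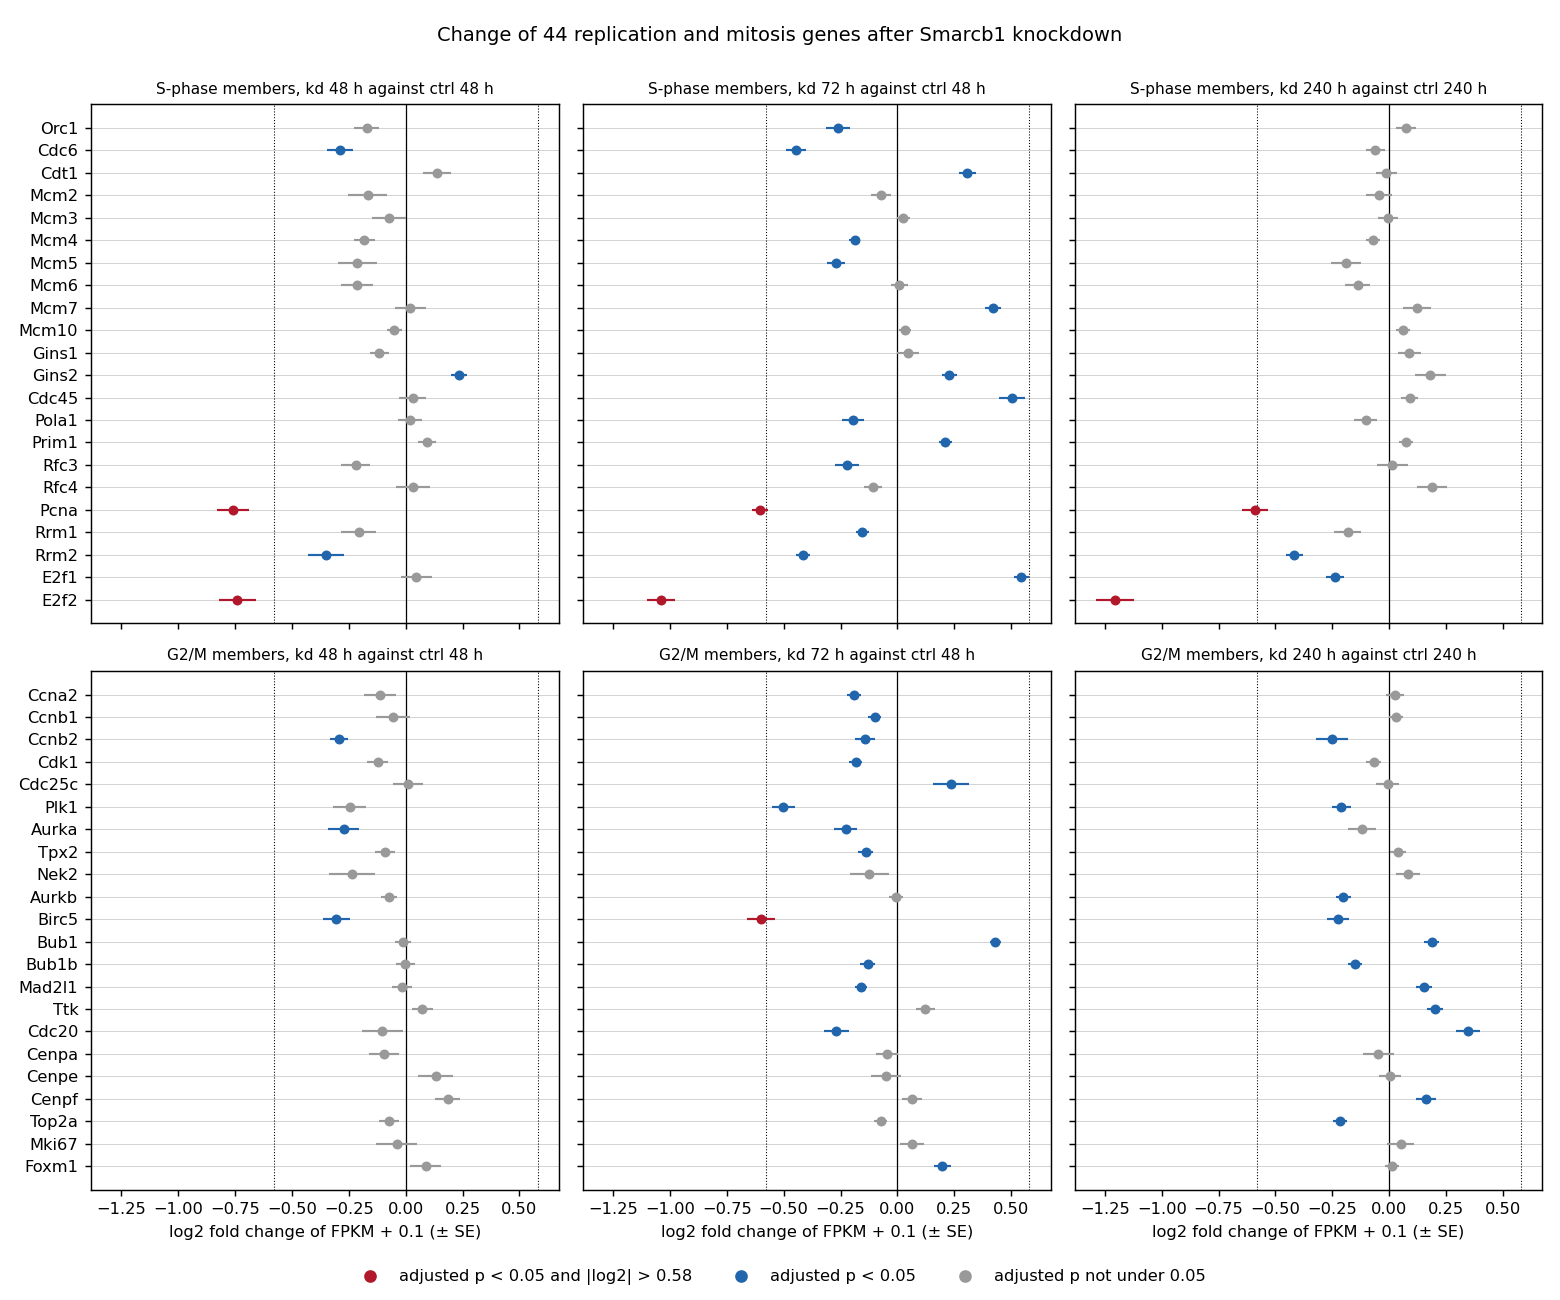
Log2 fold change (x axis, ± SE) of each member (y axis) for S-phase members (top) and G2/M members (bottom) at 48 h, 72 h and 240 h of knockdown. Red points were called, blue points passed at an adjusted p-value under 0.05, grey points did not pass, and dotted lines mark ± 0.58. E2f2 reaches -0.74, -1.04 and -1.21, and no member was called higher.

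The median change of each set was small. At 48 h the median log2 fold change was -0.14 over S-phase members and -0.07 over G2/M members, beside 0.01 over all genes tested. At 72 h the medians were -0.09 and -0.11, again beside 0.01 over all genes, and at 240 h they were -0.03 and 0.01, beside 0.00. At 72 h the G2/M median was -0.063 after removal of GC content and gene span trends, and the S-phase median -0.032 with a minimum of 2 FPKM. The G2/M median at 48 h was -0.11 after rescaling to TPM. At 240 h the S-phase median was 0.016 without the third ctrl 240 h library and -0.064 without the first, and the G2/M median was -0.0011 without the third kd 240 h library. Relative to the ctrl 48 h mean, the median of S-phase members was between -0.21 and -0.08 in the kd 48 h libraries, between -0.10 and -0.05 in the kd 72 h libraries and between -0.03 and 0.00 in the kd 240 h libraries. Both control groups lay between -0.03 and 0.04. The lowest of these values, -0.21, came from the second kd 48 h library, and without it the S-phase median at 48 h was -0.09. For G2/M members, the kd 72 h libraries were lowest, between -0.12 and -0.09, and did not overlap the ctrl libraries, between -0.02 and 0.05. Over the 44 members together, the median size of change, without its sign, was below that of all genes at each time, with 0.11 against 0.14 at 48 h, 0.19 against 0.24 at 72 h and 0.11 against 0.17 at 240 h. For S-phase members alone it was above that of all genes at 48 h, at 0.17, and below it later, at 0.22 and 0.10, and for G2/M members it was 0.09, 0.14 and 0.14. Members and all genes were not matched for expression level, so these sizes are only a description.

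**Figure D3:**
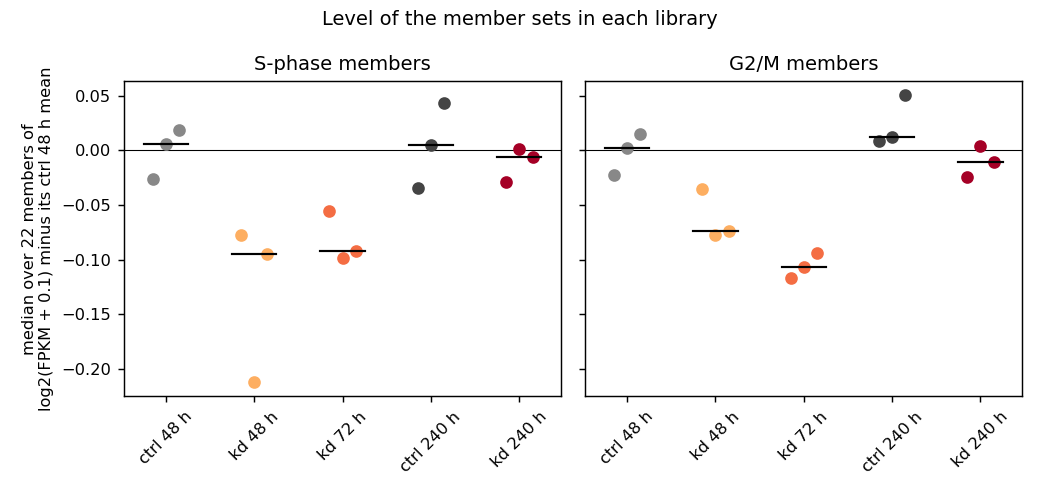
Median over 22 S-phase members (left) and 22 G2/M members (right) of log2(FPKM + 0.1) minus the gene's ctrl 48 h mean, 1 point per library, with group medians as bars. The kd 48 h and kd 72 h libraries lie under the ctrl libraries in both panels, and the second kd 48 h library is lowest at -0.21 in S-phase members.

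The transcription factors of the S-phase set diverged. E2f2 (chr4:136172394-136196057), an activating E2F factor, was listed at 1.87, 1.60 and 1.75 FPKM in ctrl 48 h, at 0.947, 1.10 and 0.965 FPKM in kd 48 h, and at 0.812, 0.773 and 0.796 FPKM in kd 72 h. In ctrl 240 h it was listed at 1.67, 1.71 and 1.43 FPKM and in kd 240 h at 0.596, 0.673 and 0.642 FPKM. Every kd library was below every ctrl library. The log2 fold change was -0.74 (SE 0.08) at 48 h, -1.04 (SE 0.06) at 72 h and -1.21 (SE 0.08) at 240 h, a 1.67-fold, 2.06-fold and 2.31-fold lower level. The adjusted p-values (limma) were 0.00464, 0.000131 and 0.000358. At 48 h the value depended on the pseudocount, being -0.45 with 1, which is short of the fold threshold. With replicate number as a block in the fit, E2f2 no longer passed at 48 h. The fall at 240 h exceeded that at 48 h by 0.47 on the log2 scale, with an adjusted p of 0.0249 for the interaction term in limma, but this difference no longer passed when any of 6 libraries was left out (adjusted p up to 0.0629).

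E2f1 (chr2:154559407-154569892), the other activating E2F among the members, took a different course. It was at 5.99, 5.74 and 5.71 FPKM in ctrl 48 h and at 5.83, 6.63 and 5.61 FPKM in kd 48 h, values that overlap. In kd 72 h it stood at 8.67, 8.35 and 8.56 FPKM, above every other library. In ctrl 240 h it was at 5.65, 5.97 and 5.51 FPKM, and in kd 240 h at 4.82 FPKM in each of the libraries, below every other. The log2 fold change was 0.05 (SE 0.07) at 48 h, 0.54 (SE 0.03, adjusted p = 0.000122, limma) at 72 h and -0.24 (SE 0.04, adjusted p = 0.0068) at 240 h. Between kd 72 h and kd 240 h, E2f1 fell by 0.81 on the log2 scale and was called (adjusted p = 2.83e-05, limma). Foxm1, the forkhead activator of mitotic genes, rose at 72 h by 0.20 (adjusted p = 0.00702, limma), a rise that fell to 0.09 and no longer passed once trends with GC content and gene span were removed, and was at 0.01 at 240 h.

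**Figure D4:**
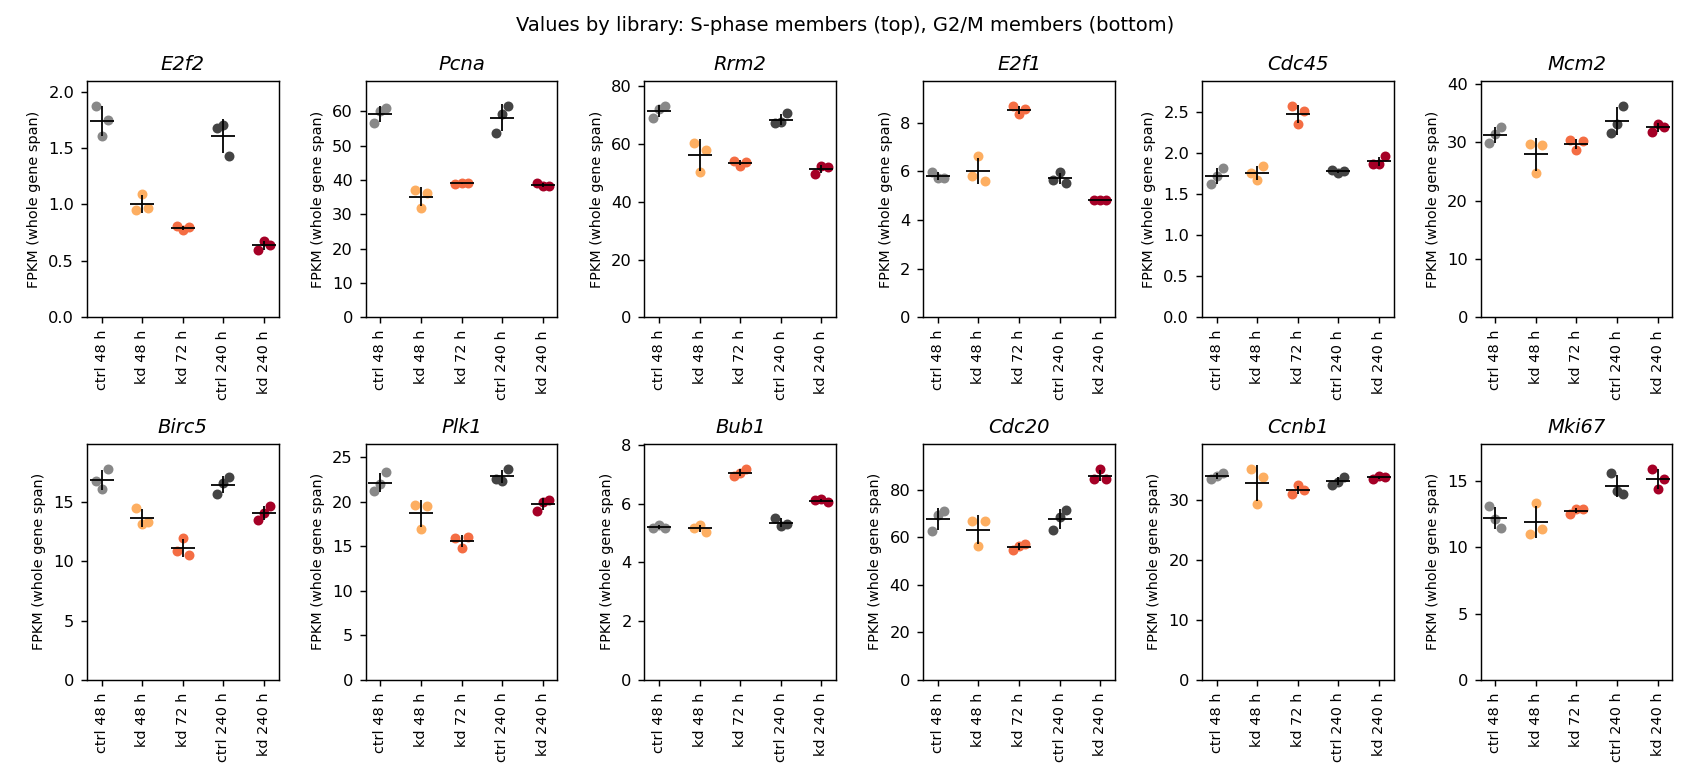
FPKM over the whole gene span (y axis, from 0) in each library (points) with the group mean ± SD (n = 3) for 6 S-phase members (top) and 6 G2/M members (bottom). E2f2 and Pcna are lower in every kd group than in either ctrl group, E2f1 and Cdc45 are highest in kd 72 h, and Mcm2, Ccnb1 and Mki67 stay close to their controls.

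Among origin licensing genes, Cdc6 passed as lower at 48 h and 72 h. Cdc6, which helps to load the Mcm helicase, was 1.22-fold lower at 48 h (adjusted p = 0.0246, limma) and 1.36-fold lower at 72 h (adjusted p = 0.000613), with means of 4.44 FPKM in ctrl 48 h, 3.62 FPKM in kd 48 h and 3.23 FPKM in kd 72 h. At 48 h Cdc6 kept passing only without the second kd 48 h library and not without any 1 of the other libraries (adjusted p up to 0.0822). At 240 h its means were 4.79 FPKM in ctrl and 4.59 FPKM in kd, and the difference did not pass. Cdt1, the partner of Cdc6 in loading, rose at 72 h by 0.31 on the log2 scale (adjusted p = 0.00128, limma), from a mean of 47.9 FPKM to 59.2 FPKM, and was at 47.4 FPKM in kd 240 h beside 47.9 FPKM in its control. The predicted gene Gm20388 spans all 5540 bases of Cdt1 on the same strand and changed by 0.05 at 72 h, so how reads were divided between them is uncertain. Orc1, a subunit of the origin recognition complex, fell at 72 h by 0.26 (adjusted p = 0.0083, limma), but Gm12743 overlaps it with 94.4% as many reads as Orc1, and counts were made without strand, so its value is uncertain.

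The 6 Mcm2-7 subunits did not move together. At 48 h none passed, with log2 fold changes from -0.21 to 0.02. At 72 h Mcm7 rose by 0.42 (adjusted p = 0.000353, limma), while Mcm5 fell by 0.27 (adjusted p = 0.00246) and Mcm4 fell by 0.19 (adjusted p = 0.00166). Mcm2, Mcm3 and Mcm6 did not pass, and at 240 h none of the 6 passed. Mcm7 shares 64 bases of its span with Cops6 and 421 with Ap4m1, which changed by -0.25 and 0.11 at 72 h. Mcm2 was listed at 29.9, 31.4 and 32.6 FPKM in ctrl 48 h, 29.7, 24.7 and 29.5 FPKM in kd 48 h, and 30.4, 28.8 and 30.2 FPKM in kd 72 h. In ctrl 240 h it was at 31.6, 33.2 and 36.2 FPKM and in kd 240 h at 31.8, 33.2 and 32.7 FPKM. Its kd and ctrl values overlapped at 72 h and 240 h, and the lowest value was that of the second kd 48 h library.

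Of the genes that start the helicase, Cdc45 changed most. It rose at 72 h by 0.50 (SE 0.06, adjusted p = 0.000908, limma), from a mean of 1.72 ± 0.10 FPKM in ctrl 48 h to 2.48 ± 0.11 FPKM in kd 72 h (SD, n = 3). At 48 h it was at 1.76 FPKM and at 240 h at 1.90 FPKM, beside 1.78 FPKM in the 240 h control. Its neighbour Ufd1 shares 209 bases with it and stood at -0.19 at 72 h. Gins2, a GINS subunit, rose by 0.24 at 48 h (adjusted p = 0.0122, limma) and 0.23 at 72 h (adjusted p = 0.00239), and lies within the span of the same Gm20388 and partly in that of Gse1, which leaves its value uncertain too. At 48 h Gins2 no longer passed without any 1 of the ctrl 48 h libraries (adjusted p up to 0.0605). Gins1 and Mcm10 passed against no control.

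In the synthesis group the sliding clamp stood apart. Pcna (chr2:132249162-132253314), the clamp that holds DNA polymerases on their template, was at 56.7, 60.1 and 61.0 FPKM in ctrl 48 h, 37.0, 31.9 and 36.3 FPKM in kd 48 h, and 38.9, 39.0 and 39.0 FPKM in kd 72 h. In ctrl 240 h it was at 53.7, 59.2 and 61.4 FPKM and in kd 240 h at 39.1, 38.3 and 38.1 FPKM. All 9 kd libraries lay below all 6 ctrl libraries. The log2 fold change was -0.76 (SE 0.07, adjusted p = 0.00328, limma) at 48 h, -0.60 (SE 0.03, adjusted p = 0.000115) at 72 h and -0.59 (SE 0.06, adjusted p = 0.00106) at 240 h, or 1.69-fold, 1.52-fold and 1.50-fold lower. The last value lies close to the fold threshold and was -0.57 without the second and -0.55 without the third ctrl 240 h library, which left it passing but not called. At 72 h Pcna was at -0.57 against the ctrl 240 h libraries, again passing but not called. A processed copy, Pcna-ps2, had 10.9% to 13.5% as many reads as Pcna in a library, and reads could be split between them.

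The polymerase alpha subunits changed less and in opposite directions. At 72 h the catalytic subunit Pola1 fell by 0.20 (adjusted p = 0.0157, limma) and the primase Prim1 rose by 0.21 (adjusted p = 0.00195). Pola1 no longer passed without the second ctrl 48 h library, or without the second or the third kd 72 h library (adjusted p up to 0.0516). The clamp loader subunit Rfc3 fell at 72 h by 0.22 (adjusted p = 0.0153), and Rfc4 did not pass at any time. None of these 4 passed at 48 h or 240 h.

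Ribonucleotide reductase makes the deoxynucleotides for replication. Its small subunit Rrm2 fell from a mean of 71.5 ± 2.03 FPKM in ctrl 48 h to 56.2 ± 5.39 FPKM in kd 48 h and 53.5 ± 0.90 FPKM in kd 72 h, and from 68.5 ± 1.95 FPKM in ctrl 240 h to 51.3 ± 1.39 FPKM in kd 240 h (SD, n = 3). The log2 fold changes were -0.35 (adjusted p = 0.0375, limma), -0.42 (adjusted p = 0.000254) and -0.42 (adjusted p = 0.000932). At 48 h Rrm2 no longer passed without any 1 of the ctrl 48 h libraries or without the third kd 48 h library (adjusted p up to 0.129). The large subunit Rrm1 passed only at 72 h, at -0.15 (adjusted p = 0.0075), which no longer passed in a fit of all 15 libraries or with GC content and gene span trends removed. At 48 h and 240 h Rrm1 stood at -0.21 and -0.18 and did not pass.

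Among cyclins and their kinase, Ccnb2 was lower at each time while Ccnb1 hardly moved. Ccnb1, a mitotic cyclin, was listed at 33.4, 33.9 and 34.5 FPKM in ctrl 48 h, 35.1, 29.3 and 33.8 FPKM in kd 48 h, and 31.0, 32.4 and 31.6 FPKM in kd 72 h. At 240 h it was at 32.5, 32.9 and 33.8 FPKM in ctrl and 33.4, 33.9 and 33.8 FPKM in kd. Its fall of 0.10 on the log2 scale at 72 h passed (adjusted p = 0.029, limma), but its adjusted p rose to 0.345 under other settings and to 0.0916 with a library left out. Ccnb2, the other B-type cyclin among the members, stood at -0.29 at 48 h (adjusted p = 0.00853), -0.14 at 72 h (adjusted p = 0.0372) and -0.25 at 240 h (adjusted p = 0.0416). At 240 h it passed without the third ctrl 240 h library but not without any 1 of the others (adjusted p up to 0.122). The 72 h fall of Ccnb2 rests on its control, since against the 240 h ctrl libraries the change was 0.00. Cdk1, the kinase that drives mitosis, and Ccna2 fell at 72 h by 0.18 and 0.19 (adjusted p = 0.00343 and 0.00375) and passed at neither other time. Ccna2 shares 863 bases with Exosc9, which had 46.2% as many reads and changed by -0.12 at 72 h, so its value is uncertain. Cdc25c, which activates Cdk1, rose at 72 h by 0.24 (adjusted p = 0.0467), and this no longer passed without any 1 of the ctrl 48 h libraries or without the second or the third kd 72 h library (adjusted p up to 0.121).

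Plk1, Aurka and the Aurka activator Tpx2 were lower wherever they passed against a control, while of the checkpoint kinases, given below with their values, Bub1 and Ttk were higher and Bub1b lower. Plk1, which acts from mitotic entry to exit, fell at 72 h by 0.50 (SE 0.05, adjusted p = 0.000622, limma) and at 240 h by 0.21 (SE 0.04, adjusted p = 0.013), with means of 22.1 FPKM in ctrl 48 h, 15.6 FPKM in kd 72 h, 22.8 FPKM in ctrl 240 h and 19.7 FPKM in kd 240 h. Aurka, a kinase of the centrosome and spindle, fell by 0.27 at 48 h (adjusted p = 0.0483) and 0.23 at 72 h (adjusted p = 0.0123), and Tpx2 fell by 0.14 at 72 h (adjusted p = 0.0129). The Aurka value at 48 h no longer passed with any 1 library left out (adjusted p from 0.071 to 0.151). Nek2 did not pass against a control.

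Of the G2/M members, Birc5 had the largest change against a control. Birc5 (chr11:117849251-117855743), survivin of the chromosomal passenger complex, was at 16.7, 16.1 and 17.8 FPKM in ctrl 48 h, 14.5, 13.1 and 13.3 FPKM in kd 48 h, and 10.8, 11.9 and 10.5 FPKM in kd 72 h. At 240 h it was at 15.6, 16.6 and 17.1 FPKM in ctrl and 13.5, 14.05 and 14.6 FPKM in kd. All kd libraries were below all ctrl libraries, and those of 72 h were lowest. The log2 fold change was -0.31 (SE 0.06, adjusted p = 0.0246, limma) at 48 h, -0.60 (SE 0.06, adjusted p = 0.000718) at 72 h and -0.22 (SE 0.05, adjusted p = 0.0182) at 240 h. The call at 72 h was lost, at -0.56, without the third ctrl 48 h or the third kd 72 h library and against the ctrl 240 h libraries, while Birc5 still passed. At 48 h Birc5 passed without the first kd 48 h library but not without any 1 of the others (adjusted p up to 0.0855), and at 240 h it did not pass without the second ctrl 240 h library or without the first or the second kd 240 h library (adjusted p up to 0.0668). Its partner kinase Aurkb stood at -0.07 and -0.01 at 48 h and 72 h and fell at 240 h by 0.20 (adjusted p = 0.0085).

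Of the 5 members that passed as higher at 240 h, 4 were spindle checkpoint genes, of which the list holds 5, beside 17.3% of all genes passing as higher. The number passing as higher was 3 without the second ctrl 240 h library, the second kd 240 h library or the third kd 240 h library, while the share of all genes passing moved from 33.8% to between 22.5% and 22.9%. The other checkpoint gene, Bub1b, passed as lower at 240 h, as 16.4% of all genes did. At 72 h 1 of the 5 passed as higher and 3 as lower, beside 28.9% and 26% of all genes, and at 48 h none passed, beside 8.03% and 8.12%. Bub1, a checkpoint kinase, rose by 0.43 at 72 h (SE 0.03, adjusted p = 0.000138, limma) and by 0.19 at 240 h (SE 0.03, adjusted p = 0.00898), with means of 5.21 FPKM in ctrl 48 h, 5.17 FPKM in kd 48 h, 7.05 FPKM in kd 72 h, 5.35 FPKM in ctrl 240 h and 6.10 FPKM in kd 240 h. Bub1b, the related BubR1, fell by 0.13 at 72 h and by 0.15 at 240 h (adjusted p = 0.0164 and 0.0138). These did not pass without the second kd library of their time, nor at 72 h without the second ctrl 48 h library (adjusted p up to 0.0527 and 0.0517). Mad2l1 fell by 0.16 at 72 h (adjusted p = 0.00428) and rose by 0.15 at 240 h (adjusted p = 0.0208), where it passed without the third ctrl 240 h library but not without any 1 of the others (adjusted p up to 0.0805). The Mad2l1 fall at 72 h was 0.06 after removal of GC content and gene span trends and 0.07 against the ctrl 240 h libraries, and passed in neither. Ttk, the Mps1 kinase, rose by 0.20 at 240 h (adjusted p = 0.00988).

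Cdc20, the activator of the anaphase-promoting complex that the checkpoint holds back, fell and then rose. It was at 62.6, 69.5 and 71.1 FPKM in ctrl 48 h, 66.7, 56.3 and 66.7 FPKM in kd 48 h, and 54.6, 56.5 and 57.2 FPKM in kd 72 h. At 240 h it was at 63.1, 68.6 and 71.3 FPKM in ctrl and 84.7, 88.7 and 84.6 FPKM in kd, above every other library. The log2 fold change was -0.10 (SE 0.09) at 48 h, -0.27 (SE 0.05, adjusted p = 0.00866, limma) at 72 h and 0.35 (SE 0.05, adjusted p = 0.00624) at 240 h. The adjacent gene Elovl1, which shares 53 bases with it, was at 0.22 both at 72 h and at 240 h.

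Of the 3 kinetochore genes, 1 passed as higher at 240 h, beside 17.3% of all genes. Of the 2 chromosome genes, 1 passed as lower at 240 h, beside 16.4% of all genes. None of these genes passed at 48 h, beside 8.03% higher and 8.12% lower, or at 72 h, beside 28.9% and 26%. Of Cenpa, Cenpe and Cenpf, only Cenpf passed against a control, at 0.16 at 240 h (adjusted p = 0.0358, limma), which no longer passed without any of 5 of the 6 libraries (adjusted p up to 0.107). Top2a, the topoisomerase that untangles chromosomes, fell at 240 h by 0.22 (adjusted p = 0.00486). Mki67, which encodes the proliferation marker Ki-67, was at 13.1, 12.1 and 11.4 FPKM in ctrl 48 h, 11.01, 13.3 and 11.4 FPKM in kd 48 h, and 12.5, 12.8 and 12.8 FPKM in kd 72 h. At 240 h it was at 15.6, 14.2 and 14.03 FPKM in ctrl and 15.9, 14.4 and 15.2 FPKM in kd. Its groups overlapped in each comparison with a control, and its log2 fold changes were -0.04, 0.06 and 0.05.

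No library enters both the 48 h and the 240 h comparison. Of the 8 members that passed at 48 h and the 15 that passed at 240 h, 5 passed at both times in the same direction, which is 62.5% of the first list and 33.3% of the second. Over all genes tested at both times these shares were 59.6% and 28.8%, close to those of the members. The 5 genes were E2f2, Pcna, Rrm2, Birc5 and Ccnb2, each lower. Of these, E2f2 and Pcna passed at both times with any 1 library left out, while Rrm2, Birc5 and Ccnb2 did not (adjusted p up to 0.129, 0.0855 and 0.122). E2f2 did not pass at 48 h once replicate number was a block in the fit. The interaction term over 12 libraries asked whether the effect at 240 h differed from that at 48 h. For 4 members it was higher at 240 h (7.76% of all genes) and for 2 lower (7.82%), and none was called (5.82%). Higher at 240 h than at 48 h were the effects on Cdc20, Orc1, Bub1 and Mad2l1, and lower were those on E2f2 and E2f1.

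**Figure D5:**
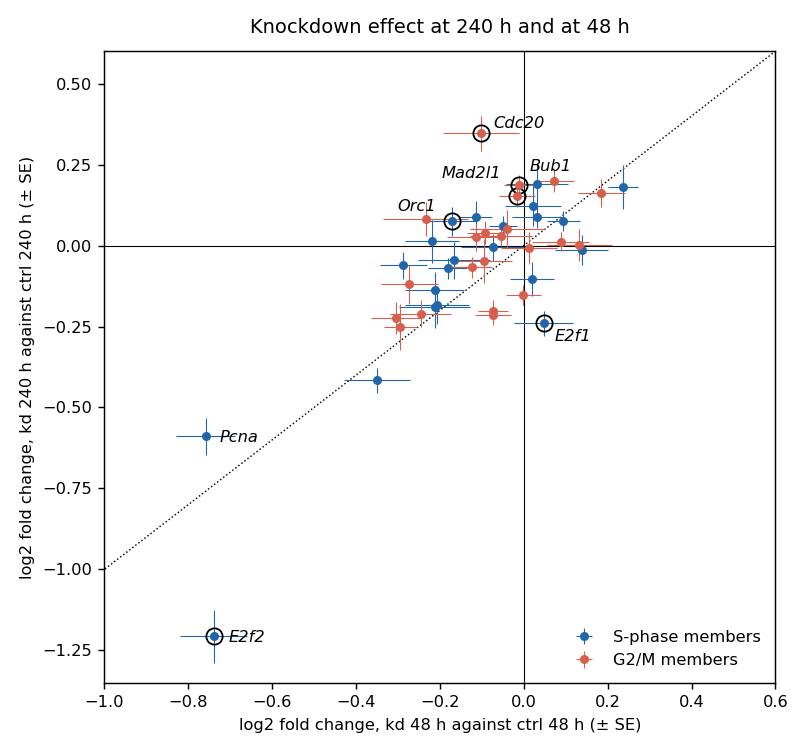
Log2 fold change at 240 h (y axis) against that at 48 h (x axis) for the 44 members, each ± SE, with S-phase members in blue, G2/M members in red and equality as a dotted line. Circled genes passed the interaction test; E2f2 lies lowest at -0.74 and -1.21, and Cdc20 highest at 0.35 for 240 h.

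Time in culture without knockdown moved no member past the threshold. Between ctrl 240 h and ctrl 48 h none of the 44 passed in limma, with 9 at an unadjusted p under 0.05, where 3013 of all 11359 genes were, and 6 passing with voom, where 12.1% of all genes did, beside 2.11% of all genes higher and 1.33% lower, and none was called, beside 0.475%. The log2 differences ran from -0.23 for Gins1 to 0.26 for Mki67. Other settings gave between 0 and 9 members passing, with the 9 after rescaling to TPM, where 13.4% of all genes passed.

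Within the knockdown series, 11 members passed from 48 h to 72 h and 29 from 72 h to 240 h, while the share of all genes passing went from 35.5% to 59.5%. Between kd 72 h and kd 48 h, 6 members passed as higher (20% of all genes) and 5 as lower (15.5%), and none was called (7.45%). E2f1, Cdc45, Bub1 and Mcm7 had the largest rises, at 0.50, 0.47, 0.44 and 0.40. Without the second kd 48 h library 22 members passed in place of 11 (40.0% of all genes), and without any 1 of the other 5 libraries 4 to 6 did (20.8% to 29.2% of all genes). Between kd 240 h and kd 72 h, 17 passed as higher (27.7%) and 12 as lower (31.8%), and 2 were called (15.7%). Cdc20 rose by 0.62 (SE 0.03, adjusted p = 7.2e-05, limma) and E2f1 fell as given above. Of the G2/M members 12 passed as higher and 5 as lower, with a median of 0.12, and of the S-phase members 5 passed as higher and 7 as lower, with a median of -0.01, beside -0.02 over all genes. Cdc6, Orc1, Birc5, Nek2 and Plk1 were higher in kd 240 h than in kd 72 h by 0.49, 0.36, 0.34, 0.34 and 0.34, while Cdc45, Cdt1 and Mcm7 were lower by 0.37, 0.32 and 0.31 on the log2 scale. These comparisons share the kd 72 h libraries with each other and with the 72 h comparison above. As there was no control at 72 h, length of knockdown and time of sampling cannot be told apart in them either.

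Other genes of the same pathways were followed too, beside the same shares of all genes as the members, 8.03% higher and 8.12% lower at 48 h, 28.9% and 26% at 72 h, and 17.3% and 16.4% at 240 h. Of 42 other replication genes tested, 2 passed as higher and 9 as lower at 48 h, 9 and 16 at 72 h, and 4 and 10 at 240 h. Of the other mitosis genes, 66 were tested at 48 h and 67 later, and 2 passed as higher and 9 as lower at 48 h, 17 and 30 at 72 h, and 8 and 12 at 240 h. Their medians were -0.10, -0.09 and -0.06 for replication and -0.06, -0.09 and -0.01 for mitosis. At 72 h the polymerase delta subunit Pold1 was called higher at 0.83 (adjusted p = 5.34e-05, limma), while Slbp, which binds histone mRNA, the helicase Recql4, the thymidylate synthase Tyms and the thymidine kinase Tk1 were called lower, at -0.68, -0.67, -0.66 and -0.66. Tyms and Tk1 supply deoxynucleotides, as Rrm2 does. The centromere gene Cenpm was called higher at 72 h and 240 h, at 0.74 and 1.16 (adjusted p = 6.13e-05 and 0.0002, limma), and Zw10 and Spc24 of the kinetochore were called lower at 72 h, at -0.66 and -0.58.

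Among 14 tested E2F, RB and MuvB regulators, 1 passed as higher and 1 as lower at 48 h, 2 and 5 at 72 h, and 1 and 5 at 240 h. E2f8, a repressing E2F factor, was called lower at 72 h at -0.87 (adjusted p = 5.31e-05, limma), from 5.09 ± 0.08 FPKM to 2.74 ± 0.10 FPKM (SD, n = 3), and was higher in kd 240 h than in kd 72 h by 0.65. The related repressor E2f7 was also higher by 0.65 and B-Myb (Mybl2) lower by 0.65 between these times. Of 12 S and G2 checkpoint genes, 2 passed as higher and 2 as lower at 48 h, 6 as higher and none as lower at 72 h, and 2 as higher and 3 as lower at 240 h. Beside both lists stand the shares of all genes passing as higher and as lower. These were 8.03% and 8.12% at 48 h, 28.9% and 26% at 72 h, and 17.3% and 16.4% at 240 h.

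Changes were set beside the promoter letters as a description. Among S-phase members with an E2F core, 3 of 14 passed as lower at 48 h, 8 of 14 at 72 h and 2 of 14 at 240 h, beside 8.83%, 32.5% and 17.8% of all tested genes with one. Among the 5 without one, 1, 1 and 2 did, beside 8.95%, 27.8% and 17.4% of all tested genes without one. These 5 include E2f1, which passed as higher at 72 h and as lower at 240 h. Its window lay 466 bases inside the gene, so its 5′ end was not searched. At 72 h a further 3 of the 14, beside 29.9% of all tested genes with an E2F core, and 2 of the 5, beside 32.5% of those without one, passed as higher, and at 48 h and 240 h none of them did. Among G2/M members with a CHR, 2 of 12 passed as lower at 48 h, 6 at 72 h and 4 at 240 h, beside 9.84%, 31.3% and 19.5% of all tested genes with one. None of the 12 passed as higher at 48 h, 1 did at 72 h and 4 did at 240 h, beside 6.82%, 29.2% and 17.5%. Among the 5 without a CHR, 1, 3 and 1 passed as lower, beside 8.77%, 28.3% and 17.1% of all tested genes without one, and 0, 0 and 1 as higher, beside 9.23%, 32.4% and 19.3%. Over all genes with a promoter, the median at 72 h was -0.02 for the 1395 with an E2F core and 0.02 for the 5973 without.

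The genes whose pattern over the 15 libraries was most like the mean of the S-phase members, among 8604 genes tested throughout, were Tmbim6, Aldoa, Amt, Gnai2 and Tlnrd1, with Pearson's r from 0.94 to 0.97. For the G2/M mean they were Wdr6, Ptbp1, Wdr1, Eif4g2 and Med17, with r from 0.97 to 0.99. These values are descriptions, and the libraries share their depth and group structure.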

How the data were processed

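RNA was sequenced in 15 libraries of 5 groups, which were taken from the sample labels. Per the submitters' processing notes, the authors aligned reads with STAR 2.7.0c to mm10 (GRCm38.p6) and used R 4.0.3 with DESeq2 1.30.0 downstream. The annotation behind the RNA-seq counts is not given in the sources used here (the study names GENCODE M23 for its peaks), and 53297 of the 55228 genes matched GENCODE M21, the version used here. The deposited values are FPKM over the whole gene span, introns included. Whole reads were recovered from 100% of values (tolerance 0.001), so depth is known, and counting ignored strand, which leaves overlapping genes uncertain. FPKM are not counts, so limma 3.58.1 in R 4.3.3 (eBayes with trend, two-sided, checked on simulated data) was used on log2(FPKM + 0.1) for genes whose mean reached 0.5 FPKM, with Benjamini-Hochberg adjustment over all genes tested. Every adjusted p-value in the text is from limma. Fold changes on this scale understate changes of low genes. Members and gene lists were chosen with earlier results of these data known, and medians over lists carry no test. Named genes were called members, Mcm2, Pcna, Ccnb1 and Mki67 with each library's value, other members by means or ranges, and called genes of the other lists. Correlations of same-numbered libraries ran from -0.10 to 0.12, which cannot exclude shared cultures, and the labels name none. No block for replicate number entered the main fits, and counts with a block are given below. Alternatives covered pseudocount, minimum, scaling, GC content and gene span, voom on recovered reads, other fits and each library left out. Python 3.11.15 was used for the remaining steps. Promoters came from RefSeq, 1 per gene, nearest to its 5′ end.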

Additional observations from a re-analysis of the deposited data

Results flagged for a closer look

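In 6 of the 44 members the effects of 48 h and 240 h of knockdown differed by a test of the interaction term (limma, 12 libraries, log2 scale, effect at 240 h minus effect at 48 h). Of all genes, 15.6% passed the same test. The difference was 0.45 (SE 0.11, adjusted p = 0.0211) for Cdc20, which stood at -0.10 at 48 h and 0.35 at 240 h, with 3 of 3 kd 240 h libraries above all 3 controls. It was 0.25 (SE 0.07, adjusted p = 0.0412) for Orc1, whose reads cannot be told apart from those of Gm12743. It was 0.20 (SE 0.04, adjusted p = 0.0109) for Bub1 and 0.17 (SE 0.05, adjusted p = 0.0476) for Mad2l1. It was -0.47 (SE 0.12, adjusted p = 0.0249) for E2f2, which was lower at both times, and -0.29 (SE 0.08, adjusted p = 0.0395) for E2f1, which stood at 0.05 at 48 h and -0.24 at 240 h. Bub1 passed with any 1 library left out (adjusted p up to 0.0333), while the other 5 each no longer passed without at least 1 library, with adjusted p up to 0.0542 for Cdc20, 0.0629 for E2f2, 0.0925 for E2f1, 0.0938 for Orc1 and 0.112 for Mad2l1.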

How the results depend on the processing

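Of the members' own results that passed, single alternatives kept direction and threshold in 1771 cases, kept only direction in 263 and turned 1, Ccnb2 at 72 h against ctrl 240 h (0.0013). The number of members passing at 48 h was 8, where 16.1% of all genes passed. It became 16 with voom on recovered reads (25.7% of all genes) and 18 in 1 fit of all 15 libraries (28.4%). It became 1 with the replicate block (3.95%) and 2 with the block and the GC content and gene span correction (4.18%). With 1 library left out it was 3 to 7 (5.96% to 14.9%). Each ctrl 48 h library left out gave 3, and the third kd 48 h library 4. For kd 72 h against kd 48 h, 11 became 17 with voom, 20 in the 15-library fit, 5 with the replicate block and 4 to 22 with 1 library left out. For the interaction, 6 members passed, beside 15.6% of all genes. This became 3 with no minimum (6.28%) and 12 in the 15-library fit (18.3%). With 1 library left out it was 1 to 6 (11.8% to 15.2%), lowest without the second or the third ctrl 48 h library. For ctrl 240 h against ctrl 48 h, 0 members passed, beside 3.44% of all genes. This became 1 with a pseudocount of 1 (3.42%), a minimum of 2 FPKM (7.33%) or quantile normalization (4.26%). Rescaling to TPM gave 9 (13.4%) and moved the median of all genes from -0.02 to 0.09. Voom gave 6 (12.1%) and the 15-library fit 5 (14.2%). Whether same-numbered libraries shared a culture is not known. Their correlations did not all exceed 0.1 in any comparison, and libraries did not all correlate best with their own number, which cannot exclude it. The replicate block moved no other count of passing members by over 1.5 times. With the block 1 member, Pcna, was called at 48 h, where E2f2 no longer passed. Called members fell from 2 to 1 at 48 h (without E2f2) and 240 h (without Pcna) with a pseudocount of 1, and with a minimum of 2 FPKM, which left E2f2 untested, at 240 h with quantile normalization and at 72 h from 3 to 1 against ctrl 240 h. With 1 library left out they were 1 to 2 at 240 h.

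The median of G2/M members moved as follows. At 72 h it was -0.090 with a pseudocount of 1 or TPM, -0.13 median centred, -0.063 after GC content and gene span correction with or without the replicate block, -0.16 against ctrl 240 h and -0.12 to -0.091 with 1 library left out. At 48 h it was -0.11 with TPM. From kd 72 h to kd 240 h it was 0.20 with TPM, 0.13 median centred, 0.15 after the correction with or without the block, and 0.11 to 0.14 with 1 library left out. From kd 48 h to kd 72 h it was 0.041 with TPM and 0.0055 after the correction with or without the block. For the interaction it was 0.10 with TPM, 0.047 by quantiles and 0.040 to 0.088 with 1 library left out. Between controls it was 0.13 with TPM and 0.052 by quantiles. The S-phase median at 72 h was -0.032 with a minimum of 2 FPKM, -0.068 with TPM and -0.11 to -0.077 with 1 library left out. At 240 h it was -0.064 to 0.016 with 1 library left out, the ends without the first and without the third ctrl 240 h library. From kd 48 h to kd 72 h it was 0.13 with TPM and 0.0086 to 0.092 with 1 library left out. From kd 72 h to kd 240 h it was 0.068 with TPM, 0.013 by quantiles and -0.040 after the correction with or without the block. For the interaction it was 0.015 to 0.12 with 1 library left out. Between controls it was 0.10 with TPM, 0.033 by quantiles and -0.019 to 0.030 with 1 library left out. The cause of these shifts was not tested.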
